A study of Mus musculus with 6 samples.

Results

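The 10 genes described here encode proteins that bind long-chain fatty acids or their CoA esters in the cytosol, or that take fatty acids up at membranes. They are 5 fatty acid binding proteins (*Fabp1*, *Fabp2*, *Fabp4*, *Fabp5* and *Fabp7*), the fatty acid translocase *Cd36*, the fatty acid transport proteins *Slc27a1*, *Slc27a2* and *Slc27a4*, and *Dbi*, the gene of acyl-CoA binding protein. The genes were taken by name from the 56691 genes of the deposited table, and they were partly selected on their CPM, since *Fabp5* and *Fabp1* had been seen to be low in KPF. Their differences between the groups are therefore given as a description. Calls from the fit over all genes are stated for them without a p, and these restate the selection and support nothing. All 10 passed the filter of a mean FPKM of at least 1 over the libraries (FPKM is the number of reads per kilobase of exon and 1000000 counted reads).

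Liver mRNA was sequenced from 3 KPF and 3 WPF dams. KPF dams were h*Chrebp* KO females, in which Alb-Cre, a Cre transgene under the albumin promoter that is active in hepatocytes, removes the floxed exon 2 of *Mlxipl*, the gene of ChREBP. WPF dams were *Chrebp* flox/flox females without Cre, which the sample labels call WT, so that both groups carry the floxed alleles and only KPF carries Cre. Both groups received HFrD (10 kcal% fat and 70% fructose) during pregnancy, from Day 0 until Day 17, and were sacrificed on Day 17, and the age of the dams is not given in the sources used here. The study describes the knockout as specific to hepatocytes, and whether Alb-Cre acted in other cells of the liver was not tested here. In whole liver fewer cells of a type and less RNA per cell cannot be told apart.

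The libraries held 10694496 to 11567941 counted reads in KPF and 12988865 to 14496630 in WPF. *Mlxipl* stood at 179, 700 and 849 CPM (TMM-normalized counts per 1000000 reads, the scale of all values called CPM here) in KPF replicates 1, 2 and 3, against 961, 1260 and 879 CPM for WPF replicates 2, 3 and 4. For *Mlxipl* the estimated log2 difference was -0.84 (standard error 0.53, adjusted p = 0.584 in edgeR's quasi-likelihood test), and reads of the whole gene were counted, not those of exon 2. Some libraries stood apart from the others of their group in genes that bear on the results below. WPF replicate 4 was low in ChREBP target genes, KPF replicate 2 held striated muscle genes, and KPF replicates 1 and 2 were above every WPF library in some adipocyte genes (such as *Plin1*) but not in others. The albumin gene *Alb* stood at 64960 to 90180 CPM in KPF, against 89430 to 148700 CPM in WPF, as an abundant liver gene in every library.

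Long-chain fatty acids dissolve poorly in water, and cells move them with carrier proteins. CD36 and the fatty acid transport proteins of the SLC27 family help fatty acids cross into the cell, and the SLC27 proteins also join them to CoA. Fatty acid binding proteins then hold the free acids in the cytosol and acyl-CoA binding protein holds the CoA esters, before these are burned in mitochondria and peroxisomes or built into triglycerides. *Fabp1* is the main fatty acid binding protein of hepatocytes and a textbook target of PPARalpha, while ChREBP and its partner Mlx switch on glycolytic and lipogenic genes when sugar is plentiful.

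The promoters of *Fabp1* and *Cd36* are shown because *Fabp1* was lower in KPF without overlap of the groups while *Cd36* overlapped, and because these windows hold the longer motif matches described here. Each line gives the 250 bases before a RefSeq start site in the GRCm38.p6 build, read 5′ to 3′ on the strand of the gene, with motif matches in capitals. The *Fabp1* window is chr6:71199629-71199878 on the plus strand and the *Cd36* window is chr5:17835897-17836146 on the minus strand.
Fabp1: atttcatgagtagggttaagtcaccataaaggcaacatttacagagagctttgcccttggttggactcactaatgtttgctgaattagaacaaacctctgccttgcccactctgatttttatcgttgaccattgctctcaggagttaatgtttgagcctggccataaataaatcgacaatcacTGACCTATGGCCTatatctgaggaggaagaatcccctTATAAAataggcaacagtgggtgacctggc
Cd36: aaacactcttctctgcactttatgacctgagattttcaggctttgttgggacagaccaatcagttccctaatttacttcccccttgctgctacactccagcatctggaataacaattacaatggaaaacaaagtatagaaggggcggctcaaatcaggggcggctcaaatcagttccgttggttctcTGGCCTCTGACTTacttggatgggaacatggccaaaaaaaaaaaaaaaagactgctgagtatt

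Both strands of these windows were searched for CACGTG (the E-box, an arm of the carbohydrate response element that ChREBP and Mlx bind), for pairs of AGGTCA in the same direction with 1 base between them and at most 2 mismatches (direct repeat 1, the form that PPAR with RXR binds), and for TATAAA. In *Fabp1* a direct repeat 1 with 1 mismatch lay 67 to 55 bases before the start and TATAAA lay 30 to 25 bases before it. In *Cd36* a direct repeat 1 with 2 mismatches lay 63 to 51 bases before the start, and 1 of the windows of *Slc27a1* held CACGTG 202 to 197 bases before its start. The windows of 7 of the 10 genes (9 windows) are described, and those of *Fabp2*, *Fabp7*, *Slc27a2* and *Slc27a4* held no match. *Fabp4* and *Fabp5* had no window. The windows were also searched for the whole carbohydrate response element, a pair of CACGTG with 5 bases between them and at most 2 mismatches. The windows described held no match to it. Among all 32851 windows the whole element occurred in 0.779%, the E-box in 6.02%, direct repeat 1 in 3.24% and TATAAA in 12.4%. A match describes the letters and does not show that a factor binds there.

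The levels of the 10 genes ranged from 0.70 to 7376 FPKM. *Fabp1* was far above the others, at 1581 to 7376 FPKM, and ranked between place 12 and place 26 of all genes in the different libraries. It made up 98.5% to 99.4% of the summed FPKM of the 5 fatty acid binding proteins. *Fabp3*, which is outside that sum, stood at 181 FPKM in KPF replicate 2 and at 0 to 0.83 FPKM in the other libraries. Next among the 10 genes came *Slc27a2*, a very long-chain acyl-CoA synthetase of liver and kidney peroxisomes and endoplasmic reticulum, at 163 to 332 FPKM. *Slc27a2* made up 97.6% to 98.6% of the summed FPKM of the 3 transport proteins. That sum leaves out the related *Slc27a5*, which is not among the 10 genes and stood at 62.8 to 250 FPKM. *Dbi* stood at 53.0 to 272 FPKM, *Fabp2*, the fatty acid binding protein of the intestine, at 13.0 to 33.4 FPKM, and *Cd36* at 8.64 to 19.9 FPKM.

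The remaining genes were low. *Fabp5*, the epidermal fatty acid binding protein, had the widest span, from 1.53 to 28.8 FPKM. *Slc27a4* stood at 1.39 to 2.85 FPKM, *Fabp4*, the fatty acid binding protein of adipocytes, at 1.28 to 7.99 FPKM, *Slc27a1*, the transport protein of muscle and adipose tissue, at 1.14 to 5.56 FPKM, and *Fabp7*, the fatty acid binding protein of brain, at 0.70 to 3.29 FPKM. With 10 to 44 reads per library, *Fabp7* was measured with the widest counting error. In the order of median FPKM, 3 neighbouring pairs were apart in all 6 libraries, namely *Fabp1* above *Slc27a2*, *Dbi* above *Fabp2* and *Fabp2* above *Cd36*. The other neighbours changed places in at least 1 library, such as *Slc27a2* and *Dbi*, where *Slc27a2* was higher in 4 of 6.

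**Figure D1:**
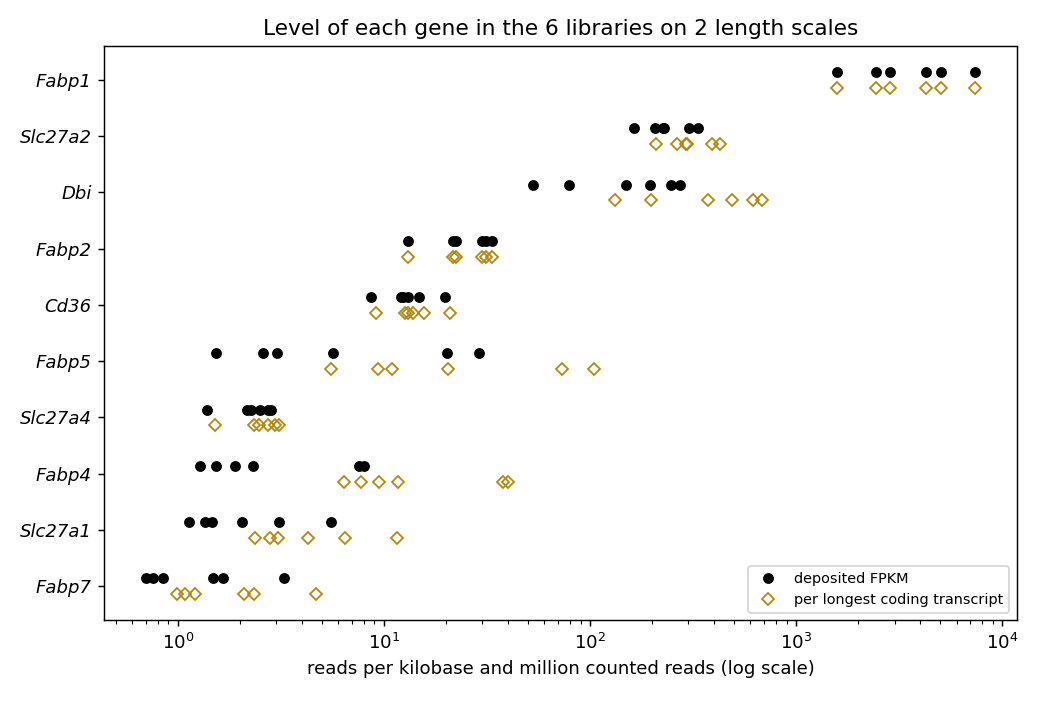
Level of each gene in the 6 libraries, in reads per kilobase and 1000000 counted reads on a log axis, per exonic length of the deposited table (filled circles, FPKM) and per longest coding transcript (open diamonds). *Fabp1* lies above every other gene on both scales, and *Fabp4*, *Fabp5*, *Dbi* and *Slc27a1* shift furthest to the right when the coding transcript is used.

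The length by which a level is divided mattered most for *Fabp4*, *Fabp5*, *Dbi* and *Slc27a1*. The deposited table gives *Fabp4* 4489 exonic bases, equal to its whole span on the chromosome, and *Fabp5* 3567 bases of a span of 4060. In the GENCODE M21 annotation the longest coding transcripts of these genes have 896 and 987 bases, and transcripts with a retained intron (Fabp4-202 and Fabp5-202) have 4231 and 3238 bases. *Dbi* has 1422 exonic bases and a longest coding transcript of 569, and *Slc27a1* has 5835 and 2795. Divided by the longest coding transcript, an alternative chosen after seeing the data, *Fabp4* stood at 6.39 to 40.1 and *Fabp5* at 5.53 to 104 reads per kilobase and 1000000 counted reads. On this scale *Dbi*, at 132 to 681, had a higher median than *Slc27a2*, at 210 to 428, and *Fabp5* had a higher median than *Cd36*. *Slc27a1*, at 2.37 to 11.6, and *Fabp4* had a higher median than *Slc27a4*, at 1.51 to 3.10, which they did not have in FPKM. The log2 fold changes estimated from counts are not divided by the length, which is the same in all libraries. The filter on FPKM and the alternative fits on log2 FPKM values do depend on it.

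Between the groups, 3 of the 10 genes (*Fabp1*, *Fabp5* and *Dbi*) were called lower in KPF and 2 (*Fabp4* and *Slc27a1*) were called higher, a call being an unadjusted p under 0.05 in edgeR's quasi-likelihood test with a change of at least 1.5-fold. Of the 10866 genes tested, 3.98% were called lower and 5.83% higher by the same rule. In 3 genes every KPF library lay below every WPF library, against 8.15% of all tested genes, and in 0 genes every KPF library lay above every WPF library, against 7.55%. As the genes were chosen with these values in view, nothing is read from their counts. By the rule of p and fold 634 genes were called higher and 433 lower with TMM scaling, and 371 higher and 729 lower with library totals. With edgeR, the unadjusted p was under 0.05 for 1177 of all genes, and the adjusted p for 0 of them (156 with DESeq2).

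**Figure D2:**
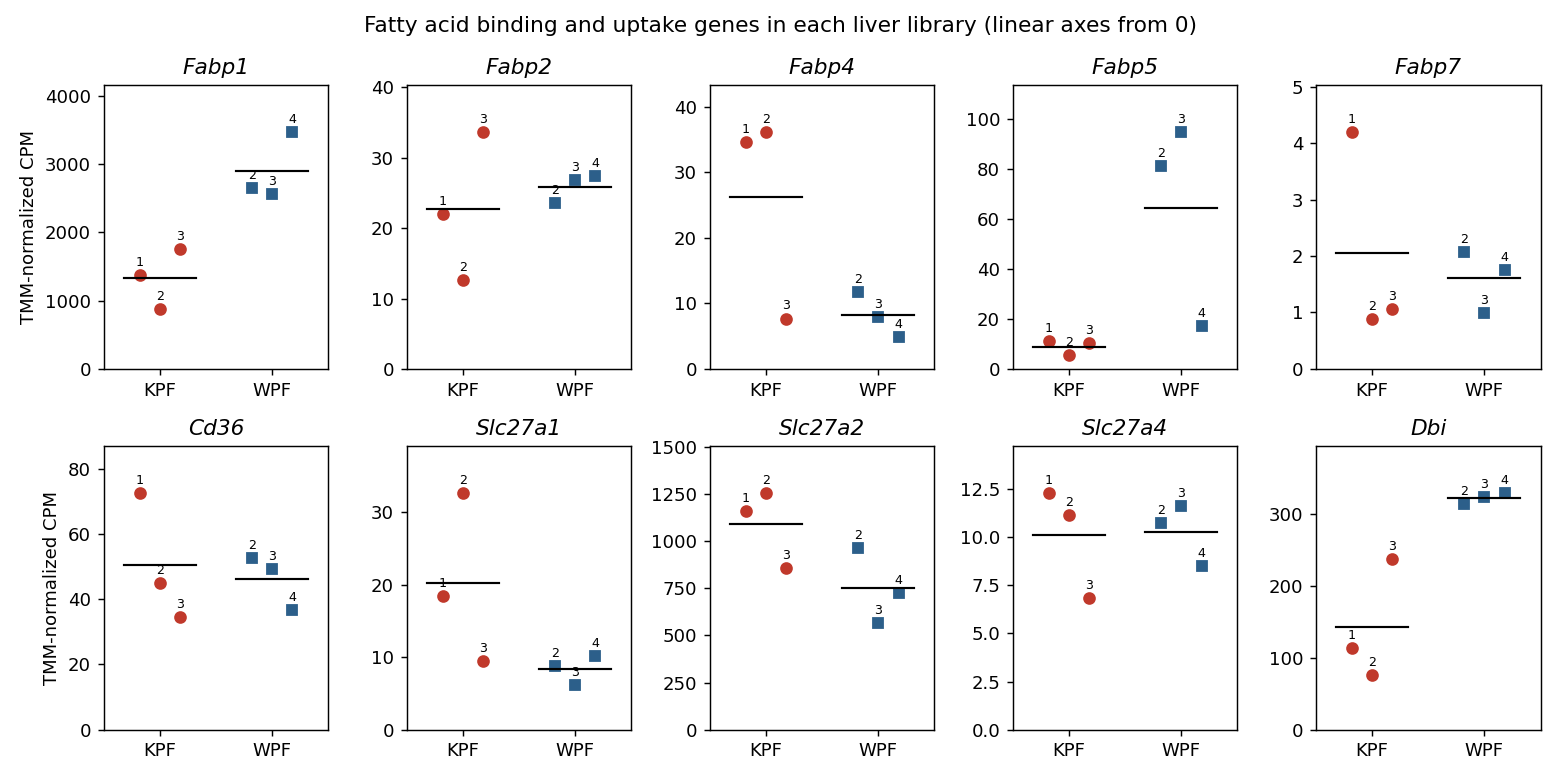
TMM-normalized CPM of the 10 genes in each library (red circles KPF, blue squares WPF, numbered by replicate), with bars at the group means, on linear axes that start at 0. The groups do not overlap for *Fabp1*, *Fabp5* and *Dbi*, while *Fabp4* is high in KPF replicates 1 and 2 and *Slc27a1* is highest in KPF replicate 2.

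*Fabp1* (ENSMUSG00000054422), on the plus strand of chromosome 6 from 71176811 to 71182007 in the GRCm39 coordinates of the table, was lower in each KPF library than in any WPF library. It stood at 1373, 879 and 1756 CPM in KPF replicates 1, 2 and 3, against 2650, 2563 and 3463 CPM for WPF replicates 2, 3 and 4. The highest KPF library was below the lowest WPF library, and WPF replicate 4 was the highest of all. The mean was 1336 ± 440 CPM in KPF and 2892 ± 496 CPM in WPF (SD, n = 3 each), a ratio of 2.17, and the log2 fold change was -1.11 (standard error 0.34). Its reads were 0.0874% to 0.158% of all counted reads in KPF and 0.236% to 0.408% in WPF. The log2 fold change lay between -1.36 and -0.72 over 16 alternative settings.

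*Fabp5* (ENSMUSG00000027533), on the plus strand of chromosome 3 from 10077608 to 10081667, showed the largest difference of the 10 genes. Its product also carries fatty acids to nuclear receptors. *Fabp5* stood at 11.1, 5.48 and 10.3 CPM in KPF replicates 1, 2 and 3, against 81.1, 94.7 and 17.2 CPM for WPF replicates 2, 3 and 4. The groups did not overlap, but the WPF libraries fell far apart, with replicate 4 close to KPF. The mean was 8.94 ± 3.02 CPM in KPF and 64.3 ± 41.4 CPM in WPF (SD, n = 3 each), a ratio of 7.19, and the log2 fold change was -2.85 (standard error 0.62). It lay between -3.53 and -2.28 over 16 alternative settings.

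*Dbi* (ENSMUSG00000026385), on the minus strand of chromosome 1 from 120041010 to 120048808, encodes the protein that holds acyl-CoA in the cytosol. It stood at 114, 75.7 and 237 CPM in KPF replicates 1, 2 and 3, against 314, 323 and 329 CPM for WPF replicates 2, 3 and 4. The WPF libraries were close together and the KPF libraries were spread widely, with replicate 3 nearest to WPF. The mean was 142 ± 84.3 CPM in KPF and 322 ± 7.77 CPM in WPF (SD, n = 3 each), and the log2 fold change was -1.18 (standard error 0.42). It was -1.04 without KPF replicate 1 and -1.18 without WPF replicate 3, and *Dbi* was not called in either case. Without KPF replicates 1 and 2 together, an alternative chosen after seeing the data, it was -0.44 for *Dbi*, -0.72 for *Fabp1* and -2.64 for *Fabp5*, and *Dbi* and *Fabp1* were not called.

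KPF replicate 2 was the lowest of the 6 libraries in all of *Fabp1*, *Fabp5* and *Dbi*. Without it the log2 fold changes were -0.89, -2.60 and -0.88. The 10 hepatocyte genes of the marker list also summed to less in KPF, 91894 to 115514 CPM against 116916 to 190260 CPM in WPF, with the lowest sum in KPF replicate 2. Of these genes *Apoa2*, an apolipoprotein of HDL, was called lower and *Pck1*, an enzyme of gluconeogenesis, higher, and the median log2 fold change of the list was -0.33. Most of each sum came from *Alb*, and the single genes of the list differed in which library was lowest. In KPF replicate 2 *Apoa1* was the lowest of the 6 libraries, at 6843 CPM. *Cps1*, *Cyp2e1* and *Pck1* were the highest there, at 438, 1111 and 1721 CPM. Whether a difference in hepatocyte RNA has a part in the values of *Fabp1* and *Dbi* was not tested.

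The 3 lower genes differed in how they stood inside WPF beside the ChREBP targets. The list of 14 ChREBP targets (glycolytic, fructolytic and lipogenic genes) summed to 1069 to 1199 CPM in the KPF libraries and to 13000, 16425 and 1609 CPM in WPF replicates 2, 3 and 4. In 13 of the 14 targets WPF replicate 4 was below both other WPF libraries, and its level was 0.198 times the mean of those libraries in the median target. *Fabp5* stood in WPF replicate 4 at 0.195 times the mean of WPF replicates 2 and 3, *Fabp1* at 1.33 times and *Dbi* at 1.03 times. In WPF replicate 4 *Fabp5* was thus about as low as the median target. The single targets ranged there from 0.035 times the mean of WPF replicates 2 and 3 for *Elovl6* to 1.85 times for *Txnip*. *Fabp1* and *Dbi* were not lower in WPF replicate 4 than in the other WPF libraries. *Mlxipl* itself stood in WPF replicate 4 at 0.791 times the mean of WPF replicates 2 and 3.

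**Figure D3:**
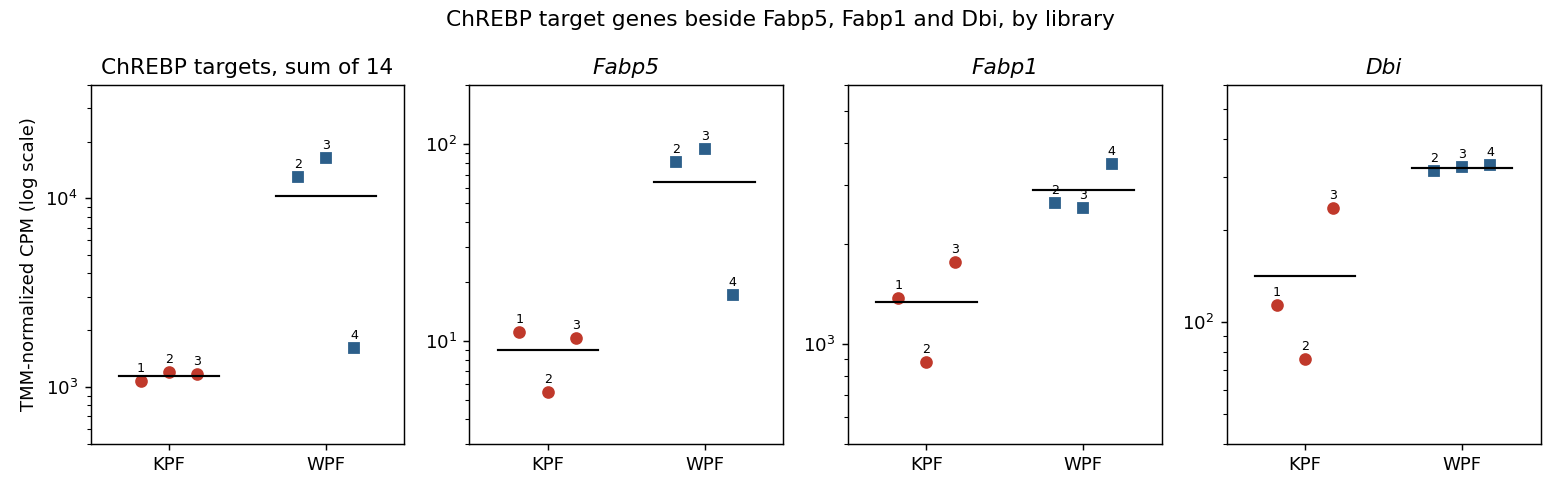
TMM-normalized CPM (log axes) of the sum of 14 ChREBP targets and of *Fabp5*, *Fabp1* and *Dbi* in each library (red circles KPF, blue squares WPF, numbered by replicate), with bars at the arithmetic group means. WPF replicate 4 is low in the targets, at 1609 CPM, and in *Fabp5*, at 17.2 CPM, but it is the highest library of *Fabp1*, at 3463 CPM, and of *Dbi*, at 329 CPM.

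Without WPF replicate 4 the log2 fold change of *Fabp5* was -3.31, that of *Fabp1* -0.97 and that of *Dbi* -1.17. Over the 6 libraries the tested genes most like *Fabp5* were the transporter gene *Slco2b1* and then *Scd1*, the stearoyl-CoA desaturase (Pearson correlation of log2(CPM + 1) of 0.997 for each). *Cdk20*, *Ppfibp1* and *Plpp6* followed, with correlations of 0.988 to 0.989. The genes most like *Fabp1* were *Txnrd1*, *Sp3*, *Dennd3*, *Ddx6* and *Atg12*, with correlations of 0.986 to 0.999, and *Dbi* correlated with *Fabp1* at 0.956. These values describe 6 libraries, and the 5 genes named for each were picked as the highest of 10866. The correlations include the group difference on which *Fabp5* and *Fabp1* were partly selected, so nothing is read from the genes they name. All values share the libraries' depth and scaling.

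The adipocyte gene *Fabp4* (ENSMUSG00000062515), on the minus strand of chromosome 3 from 10269148 to 10273636, was high in 2 of the 3 KPF libraries. It stood at 34.7, 36.1 and 7.69 CPM in KPF replicates 1, 2 and 3, against 11.8, 7.87 and 4.86 CPM for WPF replicates 2, 3 and 4. KPF replicate 3 lay within the range of WPF, so that the groups overlapped. The mean was 26.2 ± 16.0 CPM in KPF and 8.16 ± 3.45 CPM in WPF (SD, n = 3 each), and the log2 fold change was 1.69 (standard error 0.58). *Fabp4* was called higher in 7 of 15 alternative settings. It was not called without KPF replicate 1 (1.43), KPF replicate 2 (1.38), WPF replicate 3 (1.66) or WPF replicate 4 (1.41), and without KPF replicates 1 and 2 the value was -0.075, with the opposite sign.

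*Fabp4* is expressed by adipocytes and by some endothelial cells and macrophages, and markers of these cells were measured in the same libraries. The 10 adipocyte genes of the list differed in which libraries were high. *Cfd*, the complement factor adipsin, stood at 4.19, 17.3 and 1.25 CPM in KPF, against 0, 0.141 and 0 CPM in WPF. *Plin1*, which coats the fat droplet of adipocytes, stood at 0.857, 1.06 and 0.0961 CPM in KPF, against 0, 0 and 0.0586 CPM in WPF, and the leptin gene *Lep* had 0 reads in every library. In *Cfd*, *Plin1* and the resistin gene *Retn* every KPF library lay above every WPF library, at levels near 0 in WPF. The groups overlapped in the other 6 genes. The glucose transporter gene *Slc2a4* stood at 1.62, 55.0 and 0.480 CPM in KPF, against 7.69, 11.6 and 0.117 CPM in WPF, and *Cidec*, a fat droplet gene, at 4.29, 1.06 and 0.865 CPM in KPF, against 0.778, 0.773 and 1.52 CPM in WPF. The list summed to 379, 2192 and 2499 CPM in KPF, against 789, 945 and 1483 CPM in WPF, most of it from *Car3*, which hepatocytes also express, so that KPF replicate 1 had the lowest sum of all. The part of adipocyte RNA in the value of *Fabp4* was not tested.

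The mesothelial gene *Msln*, a marker of the surface lining of the liver, stood at 6.48, 7.61 and 1.54 CPM in KPF, against 0.778, 2.18 and 0.527 CPM in WPF, and the 5 mesothelium genes summed to 3.65 to 13.7 CPM in KPF and 1.56 to 3.79 CPM in WPF. The 10 stellate cell and fibroblast genes summed to 711, 927 and 342 CPM in KPF, against 337, 320 and 306 CPM in WPF, so that every KPF library lay above every WPF library. Of these genes 4 were called higher (*Col3a1*, *Col1a1*, *Des* and *Reln*), and *Des*, at 486 CPM in KPF replicate 2, is also a muscle gene. The groups overlapped in the sums of the endothelial, macrophage and bile duct lists. The 12 sinusoidal endothelium genes summed to 211 to 227 CPM in KPF and 183 to 215 CPM in WPF, with 1 called higher (*Pecam1*). The 12 Kupffer cell and macrophage genes summed to 227 to 298 CPM in KPF and 209 to 441 CPM in WPF, with 0 called (0 at an unadjusted p under 0.05). The 6 bile duct genes summed to 26.8 to 35.7 CPM in KPF and 24.7 to 51.5 CPM in WPF, with 0 of the 2 tested called (0 at an unadjusted p under 0.05). The part of these cells in the value of *Fabp4* was not tested.

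The genes most like *Fabp4* over the 6 libraries were *Gm5617*, *Clec16a*, *AC131065.2*, *Uxt* and *Mrpl39* (Pearson correlations of log2(CPM + 1) of 0.994 to 0.996, picked as the highest of 10866 genes). *Fabp5* lies 188 kilobases from *Fabp4* on chromosome 3. The fatty acid binding protein genes *Fabp9* and *Pmp2* lie between them and had 0 reads in all 6 libraries. *Fabp4* and *Fabp5* thus stood close together in the genome and differed in opposite directions between the groups.

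*Slc27a1* (ENSMUSG00000031808), on the plus strand of chromosome 8 from 72021526 to 72039946, stood at 18.4, 32.6 and 9.51 CPM in KPF replicates 1, 2 and 3, against 8.81, 6.11 and 10.2 CPM for WPF replicates 2, 3 and 4. KPF replicate 3 lay within the range of WPF, and KPF replicate 2 was the highest of all. The mean was 20.2 ± 11.7 CPM in KPF and 8.37 ± 2.07 CPM in WPF (SD, n = 3 each), and the log2 fold change was 1.27 (standard error 0.44). It was 0.73 without KPF replicate 2, 1.31 without WPF replicate 2, 1.09 without WPF replicate 3 and 0.18 without KPF replicates 1 and 2, and in none of these cases was *Slc27a1* called.

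KPF replicate 2 differed from all other libraries in genes of striated muscle. A list of 12 such genes, written after the values were seen, summed to 2850 CPM there, to 40.2 and 8.84 CPM in KPF replicates 1 and 3 and to 10.1 to 15.5 CPM in WPF. The creatine kinase gene *Ckm* stood at 517 CPM there and at 0.0961 to 1.05 CPM elsewhere. The heart and muscle fatty acid binding protein *Fabp3* had 1690 reads in KPF replicate 2 and 0 to 9 reads in each of the other libraries, so that its call of higher in KPF rested on that library. *Lpl*, the lipoprotein lipase that frees fatty acids in muscle and adipose tissue, stood at 358 CPM there and at 20.3 to 46.1 CPM elsewhere. A list of 6 brown adipocyte genes, also written after the values were seen, summed to 249 CPM there and to 2.79 to 10.7 CPM elsewhere, mostly from *Cox8b* and *Cox7a1*, which muscle also expresses, and *Ucp1* was at 0.531 CPM or less in every library. Whether muscle RNA has a part in the value of *Slc27a1* was not tested.

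**Figure D4:**
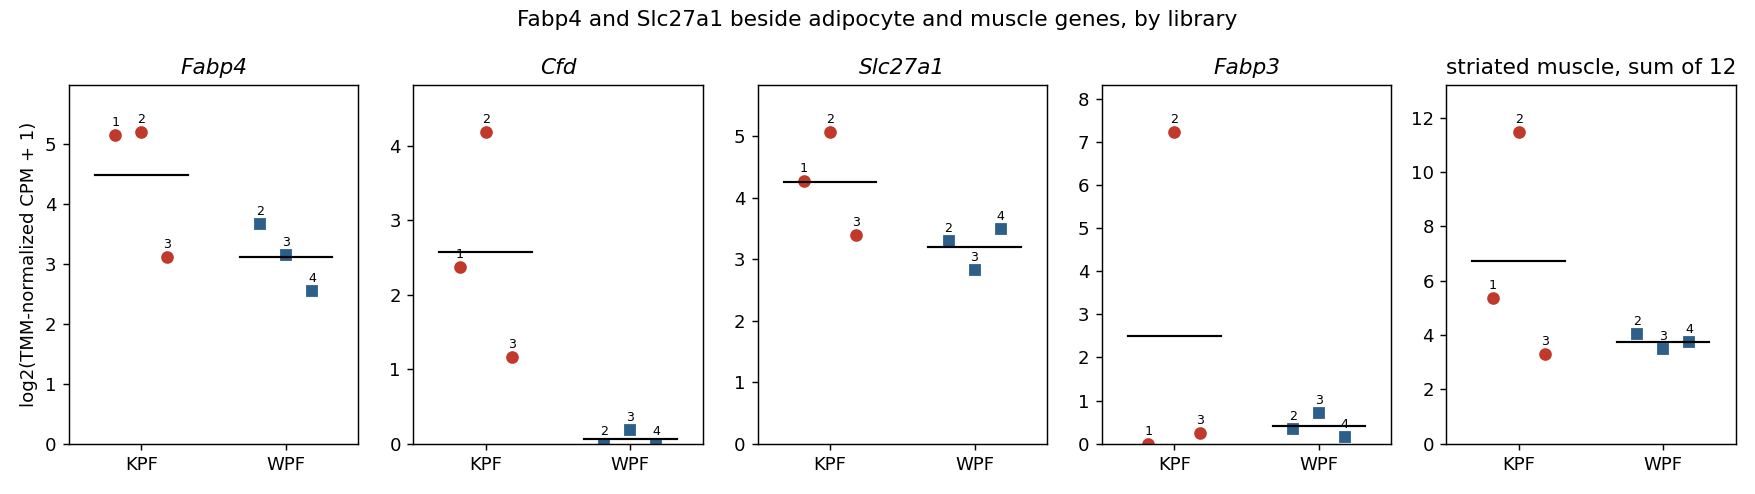
Values of *Fabp4*, the adipocyte gene *Cfd*, *Slc27a1*, *Fabp3* and the sum of 12 striated muscle genes in each library, as log2(TMM-normalized CPM + 1) on axes that start at 0 (red circles KPF, blue squares WPF, numbered by replicate, bars at the means of the log2 values). *Fabp3* and the muscle genes stand out in KPF replicate 2, where *Slc27a1* is highest, and *Cfd* is above 1 CPM in the KPF libraries and below it in the WPF libraries.

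*Slc27a2* (ENSMUSG00000027359), on the plus strand of chromosome 2 from 126394327 to 126430163, had the highest level of the 3 transport protein genes described here. It stood at 1158, 1255 and 858 CPM in KPF replicates 1, 2 and 3, against 964, 564 and 722 CPM for WPF replicates 2, 3 and 4. WPF replicate 2 lay above KPF replicate 3, so that the groups overlapped, although the mean was higher in KPF. The log2 fold change was 0.54 (standard error 0.31), and it lay between 0.20 and 0.76 over 16 alternative settings. The related *Slc27a5*, the bile acid-CoA synthetase of hepatocytes, stood at 160 to 614 CPM in KPF and 141 to 276 CPM in WPF and was not called.

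*Slc27a4* (ENSMUSG00000059316), on the plus strand of chromosome 2 from 29692646 to 29707534, encodes a widely expressed transport protein. It stood at 12.3, 11.2 and 6.82 CPM in KPF, against 10.7, 11.6 and 8.49 CPM in WPF, and its log2 fold change was -0.024 (standard error 0.29). *Cd36* (ENSMUSG00000002944), on the minus strand of chromosome 5 from 17986688 to 18093799, stood at 72.6, 44.9 and 34.5 CPM in KPF, against 52.6, 49.3 and 36.7 CPM in WPF. The groups overlapped in both genes, and KPF replicate 1 was the highest library in each. The log2 fold change of *Cd36* was 0.13 (standard error 0.31) and lay between -0.42 and 0.35 over the alternative settings. Neither value shows that the groups are alike, since the standard errors are large beside the values.

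*Fabp2* (ENSMUSG00000023057), on the plus strand of chromosome 3 from 122688721 to 122693155, is best known from the gut. It stood at 22.0, 12.7 and 33.6 CPM in KPF, against 23.5, 26.8 and 27.4 CPM in WPF, or -0.19 on the log2 scale (standard error 0.34). The KPF libraries spread on both sides of the WPF libraries. Intestinal epithelium genes were near 0 in the same libraries, since the 7 genes of that list summed to 0.259 to 1.70 CPM, *Cdx1* had 0 reads in every library, and the level of *Fabp2* was 12.7 CPM or more in each.

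*Fabp7* (ENSMUSG00000019874), on the plus strand of chromosome 10 from 57660977 to 57664546, stood at 4.19, 0.885 and 1.06 CPM in KPF, against 2.07, 0.984 and 1.76 CPM in WPF. Its log2 fold change of 0.35 (standard error 0.67) had the opposite sign without KPF replicate 1, at -0.72.

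**Figure D5:**
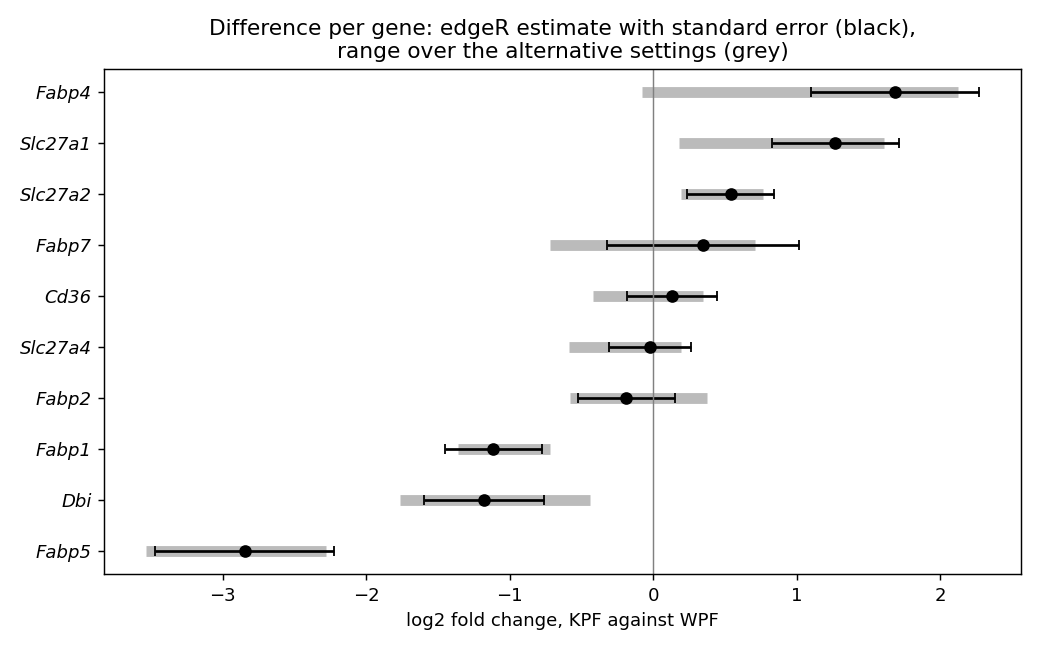
Log2 fold change of each gene, KPF against WPF, from edgeR (black points with standard errors) and its range over the alternative settings (grey bars). The bars of *Fabp1*, *Fabp5* and *Dbi* lie below 0 and those of *Slc27a1* and *Slc27a2* above it, while those of the other 5 genes cross 0.

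Some of the genes varied against one another across the libraries. *Dbi* correlated with *Slc27a1* at -0.95 and with *Fabp4* at -0.92 on the log2(CPM + 1) scale. *Fabp1* correlated with *Fabp4* at -0.87 and with *Slc27a1* at -0.86, and *Cd36* with *Slc27a4* at 0.85. *Fabp5* correlated less with *Fabp4*, at -0.48. These correlations are over 6 libraries that include the group difference and share one scaling, and they are given as a description.

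Relatives of the 10 genes gave few calls. Of the 14 other family members (other fatty acid binding, transport and acyl-CoA binding proteins), 7 were tested, 1 was called higher (*Fabp3*, above) and 0 lower, with a median log2 fold change of 0.31 beside 0.016 for all tested genes. *Fabp6*, *Fabp9* and *Pmp2* had 0 reads in every library and *Fabp12* had 3 to 19. The copies *Fabp5l2* of *Fabp5* and *Gm12222* of *Dbi* had 0 reads in every library.

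Acyl-CoA synthetases join fatty acids to CoA, the step between uptake and the pool that *Dbi* binds. Of the 12 genes on the list 7 were tested, 3 were called lower and 0 higher, with a median log2 fold change of -0.28. Over the alternative settings 1 to 3 were called lower (1 without WPF replicate 2 and 1 without WPF replicate 3) and 0 to 2 higher. *Acss2*, which makes acetyl-CoA from acetate, stood at 29.6, 64.6 and 58.1 CPM in KPF, against 326, 616 and 123 CPM in WPF, or -2.80 on the log2 scale (standard error 0.61). The log2 fold change was -1.25 (standard error 0.43) for *Acsl5* and -1.09 (standard error 0.47) for *Acsl3*, both long-chain synthetases. For these 3 genes edgeR's quasi-likelihood test gave an adjusted p between 0.415 and 0.461. *Acsl5* and *Acsl3* were lower in WPF replicate 4, at 150 and 24.1 CPM, than in WPF replicates 2 and 3, like *Acss2* and *Fabp5*. In *Acsl3* KPF replicate 3, at 30.3 CPM, lay above WPF replicate 4, so that the groups overlapped.

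Of 12 other uptake proteins 11 were tested, 2 were called higher (1 without each of KPF replicate 2 and WPF replicates 2, 3 and 4) and 0 lower, with a median log2 fold change of -0.11. *Cav1*, the caveolin of endothelium and adipocytes, stood at 5.81, 15.9 and 2.50 CPM in KPF, against 1.12, 0.703 and 1.29 CPM in WPF, a log2 difference of 2.95 (standard error 0.69, adjusted p = 0.416 in edgeR's quasi-likelihood test). The other was *Lpl*, at a log2 difference of 2.27 (standard error 0.95, adjusted p = 0.456 in edgeR's quasi-likelihood test). Like *Fabp4*, both genes were highest in KPF replicate 2 and lowest among the KPF libraries in replicate 3.

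Of the 14 ChREBP targets all were tested, 12 were called lower and 0 higher, with a median log2 fold change of -2.72. *Acacb*, *Pklr* and *Scd1* had the smallest p, with log2 fold changes of -2.41 (standard error 0.50), -2.91 (0.64) and -4.74 (1.05), each with an adjusted p of 0.415 in edgeR's quasi-likelihood test. The value of *Fabp5*, -2.85, lay near this median, while those of *Fabp1* and *Dbi* were smaller in size. *Fabp5* was selected on this difference and the list was written with earlier results of these data known, so nothing is read from the likeness. Without KPF replicates 1 and 2, 4 of the 14 were called lower.

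Of 18 PPARalpha targets, the group to which *Fabp1* is usually counted, all were tested and 0 were called in either direction by edgeR with all libraries, TMM scaling and the FPKM filter (0 at an unadjusted p under 0.05). Over the alternative settings, DESeq2 among them with 1 higher and 1 lower, 0 to 2 were called higher and 0 to 3 lower. Their median log2 fold change was 0.070, with 10 above 0 and 8 below. Of 16 regulators (PPARs, RXRs, LXRs, hepatocyte factors and ChREBP partners) 15 were tested and 0 were called in the same edgeR fit (0 at an unadjusted p under 0.05), with a median of 0.11, and 0 to 2 were called higher and 0 to 1 lower over the alternative settings (1 higher and 1 lower with DESeq2). *Ppara* stood at 9.42 to 11.9 CPM in KPF, against 5.19, 3.72 and 22.6 CPM in WPF replicates 2, 3 and 4. It was highest in WPF replicate 4, as *Fabp1* was. In WPF replicates 2 and 3 *Ppara* lay below every KPF library, while *Fabp1* lay above every KPF library. *Hnf4a*, which supports many hepatocyte genes, had a log2 fold change of 0.22 (standard error 0.25). *Srebf1*, also on the list of regulators, stood at 21.4, 116 and 82.5 CPM in KPF, against 174, 144 and 132 CPM in WPF. Its log2 fold change was -1.03 (standard error 0.54). Every KPF library lay below every WPF library in *Srebf1*, as in 8.15% of all tested genes.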

How the data were processed

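Liver mRNA of 3 KPF and 3 WPF dams was prepared with Oligo(dT) beads and sequenced. For each gene the deposited table gives the raw count of reads and the FPKM of each library. Per the labels, the submitters' processing notes name cutadapt 1.9.1, HISAT2 2.2.1, HTSeq 0.6.1, DESeq2 and the GRCm39 build. The deposited FPKM equals the count divided by exonic length and by the library's total, within 0.005. Whether reads were counted by strand is not given in the sources used here.

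Groups and replicate numbers came from the sample labels. Symbols came from GENCODE M21 (52073 of 56691 IDs matched). Genes whose FPKM averaged 1 or more over the libraries (10866) were kept, and their counts were normalized by TMM and tested in edgeR 4.0.16 (R 4.3.3, glmQLFit and glmQLFTest) with Benjamini-Hochberg adjustment over all of them. The fit was also run on counts simulated from the fitted model itself, without outlying libraries, which checks the code and not the calls made here. Genes were called at an unadjusted p under 0.05 with at least 1.5-fold change, as model-based p-values, since an exact test of 3 against 3 cannot go below 0.1. The p-values set the group difference against the spread between libraries of a group, which edgeR estimates with information shared across genes. Spread between dams and between the pieces of liver taken cannot be told apart. No pair of libraries was alike within sampling noise (chi-square per gene of at least 35.5).

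Alternatives were other scalings and filters, DESeq2 1.42.0, limma 3.58.1 on log2(FPKM + 1) and log2(FPKM + 0.1), leaving out each library, and the replicate number as a block. The members and the gene lists were chosen with earlier results of these data known. Named were the 10 genes, *Mlxipl*, up to 3 called genes per list with the smallest p, defining markers, and the 5 genes most correlated with *Fabp1*, *Fabp5* and *Fabp4*. Other genes named were chosen after their values were seen. Sequences are from RefSeq (GRCm38.p6), and coordinates of genes are those of the deposited table. Depth was 10694496 to 14496630 counted reads per library, and genes with few reads, such as *Fabp7*, are measured with wide error. Some sequences and genes are not reported here. Results of the RNA-seq of other dams of the study were not analysed here.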

Additional observations from a re-analysis of the deposited data

How the results depend on the processing

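Of 156 values of the 10 genes under 16 alternatives, 145 moved by less than the spread between replicates. As the genes were chosen with these values in view, this is no sign of stability, and for the values that changed the cause was not tested. Scaling by library totals gave 371 genes called higher and 729 lower, and shifted the median log2 difference over tested genes from 0.016 to -0.12, while each member kept its sign. DESeq2 gave 156 genes at an adjusted p under 0.05. With no filter on low values 1576 genes were called higher, 910 lower and 286 at an adjusted p under 0.05, with 7 list genes called higher. With a minimum mean FPKM of 5 (255 higher, 205 lower), *Fabp4*, *Fabp7*, *Slc27a1* and *Slc27a4* were not tested, 0 members and 1 list gene were called higher. On FPKM values, limma gave 238 higher genes, 0 higher members and 1 higher list gene with log2(FPKM + 1), and with log2(FPKM + 0.1) it gave 257 higher genes, 681 lower genes, 1 gene at an adjusted p under 0.05, 0 higher members and 1 higher list gene. With each library left out in turn, 324 (without WPF replicate 3) to 910 genes (without KPF replicate 3) were called higher and 246 to 709 lower (the same libraries), with 355 higher and 286 lower without WPF replicate 2, 0 to 5 (without WPF replicate 4) had an adjusted p under 0.05, 0 to 2 members were called higher and 2 to 3 lower, and 1 to 6 list genes were called higher and 11 to 19 lower. 

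Without KPF replicates 1 and 2, chosen after seeing the data, 319 genes were called higher and 256 lower, 0 members higher and 1 lower (*Fabp5*), 1 list gene higher and 8 lower, and *Fabp4* stood at -0.075 with its sign turned. This fit rests on a lone KPF library that is assumed to vary like the WPF libraries.

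Replicate numbers 2 and 3 occur in both groups and stand for different dams. The deviations of the same-numbered libraries from their group means correlated at 0.035 and 0, and those of differently numbered libraries at -0.196 to 0.149. With so few libraries these values cannot decide whether the numbers pair the dams, and no pairing is stated in the sources used here. With the replicate number as a block, which rests on replicates 2 and 3, 680 genes were called higher and 551 lower, 1 member was called higher (*Slc27a1*) and 2 lower (*Fabp5* at -3.53 and *Dbi* at -1.25), while *Fabp1* at -1.07 and *Fabp4* at 0.83 were not called, and 6 list genes were called higher.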
